A study of Mus musculus with 6 samples.

Results

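The chains of the mouse receptors for IgE and IgG were followed here through 6 genes, Fcer1a, Ms4a2, Fcer1g, Fcgr1, Fcgr2b and Fcgr3. The members were all probe sets annotated to 1 of these genes alone, since probe sets with several symbols were left out. This gave 12 of the 45101 probe sets on the array and 6 of 18194 genes with a probe set of 1 symbol. They were chosen by family and with their signals in both groups of these arrays known, so their differences between the groups are given as a description, with no p-value for a single member. RNA came from Ba/F3, an interleukin 3-dependent line of mouse pro-B cells, into which a construct for NCOR1-LYN had been brought with a retroviral Tet-on system. NCOR1-LYN joins parts of the nuclear receptor corepressor NCOR1 and of the SRC family tyrosine kinase LYN. The NCOR1-LYN group was 3 cultures given doxycycline, genotype "expressing NCOR1-LYN" in the labels, and the control group was 3 cultures of the same cells without doxycycline. Effects of doxycycline and of the fusion cannot be told apart, since every NCOR1-LYN culture and no control culture had doxycycline. Whether the cells were a single clone is not given in the sources used here, and nothing says that the 3 cultures were more than technical repeats, so the spread is that between these arrays. Each sample was hybridised to 1 Affymetrix mouse array, and values are MAS5 signals on a linear scale.

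Fc receptors bind the constant part of antibodies. The IgE receptor FcεRI of mast cells and basophils is built from an alpha chain that holds IgE (Fcer1a), a beta chain that amplifies the signal (Ms4a2) and a dimer of gamma chains (Fcer1g). The beta and gamma chains carry tyrosine motifs, called ITAMs, that SRC family kinases such as LYN phosphorylate so that the kinase SYK can bind. Fcgr1 and Fcgr3 encode the ligand-binding chains of activating IgG receptors, which use the same gamma chain, whereas Fcgr2b encodes an inhibitory IgG receptor with an ITIM motif that recruits the phosphatase SHIP1. In mouse cells the beta chain is needed for FcεRI to reach the surface.

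Promoters of 3 members are shown because Fcer1a and Fcgr1 had the largest and the least even changes of the family, and Fcer1g encodes the chain that both of their receptors share. They are RefSeq sequences on GRCm38.p6 from 250 bases before to 50 bases after the annotated start, read 5′ to 3′ on the minus strand, on which all 3 genes lie. Capitals mark GATA, the core bound by GATA factors, or its reverse complement, and GAGGAA, a core of sites for the myeloid factor PU.1, or its reverse complement.
Fcer1a, chr1:173227180-173227479: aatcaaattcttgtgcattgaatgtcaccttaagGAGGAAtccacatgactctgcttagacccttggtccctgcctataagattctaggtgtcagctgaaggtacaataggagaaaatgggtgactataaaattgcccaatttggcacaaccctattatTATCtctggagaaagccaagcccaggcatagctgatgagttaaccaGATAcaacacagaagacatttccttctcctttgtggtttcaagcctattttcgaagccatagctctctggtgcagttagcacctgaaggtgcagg
Fcer1g, chr1:171234300-171234599: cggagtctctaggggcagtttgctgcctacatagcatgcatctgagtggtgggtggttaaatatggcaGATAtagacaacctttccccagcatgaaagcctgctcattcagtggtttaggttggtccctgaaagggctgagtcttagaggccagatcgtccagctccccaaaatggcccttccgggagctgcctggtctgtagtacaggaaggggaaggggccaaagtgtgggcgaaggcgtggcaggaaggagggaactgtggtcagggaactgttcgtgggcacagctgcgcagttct
Fcgr1, chr3:96293920-96294219: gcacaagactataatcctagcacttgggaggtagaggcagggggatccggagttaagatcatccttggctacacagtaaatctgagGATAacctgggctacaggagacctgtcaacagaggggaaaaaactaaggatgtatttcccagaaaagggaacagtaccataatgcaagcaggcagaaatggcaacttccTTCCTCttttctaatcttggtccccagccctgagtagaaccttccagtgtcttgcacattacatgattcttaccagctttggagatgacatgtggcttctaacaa

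On either strand, GATA matched at 2 places in the Fcer1a window, at −91 to −88 and at −45 to −42, and once each in the Fcer1g and Fcgr1 windows. GATA is a short motif and was found in 57.9% of all 32851 promoter windows of this length. GAGGAA lay at −216 to −211 in Fcer1a and, as its reverse complement, at −55 to −50 in Fcgr1, and 28.3% of all windows held it. The Fcgr1 window also held TTCNNNGAA, the pattern of STAT sites, at −109 to −101, which 8.3% of all windows held. Read in the same direction, the longest run shared by any pair of the 6 promoters was TTCCTTCCTCTTTT, with 14 bases. It began at −59 in Fcgr1 and at −10 in Fcgr3, counted there from the first of its 2 listed starts. The run contains the reverse complement of GAGGAA. Runs shared with the reverse complement of another window were not searched. The Ms4a2 window held 5 GATA matches, of which 2 overlap each other. These matches describe the letters of the windows and were not measured as binding sites.

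Replicate 1 of both groups stood apart from replicates 2 and 3 over the whole array, and this touches most of the members. The first principal component of the 10916 genes in the fit (58% of the variance) had scores of −24.9 for NCOR1-LYN 1 and −37.2 for control 1, against 12 to 18.6 for the other 4 arrays. Every member is therefore given array by array and as the difference within each same-numbered pair, on the log2(signal + 64) scale. The offset makes changes of dim genes look smaller. Log2 changes are the mean of NCOR1-LYN minus the mean of control on that scale, with the standard error (SE) of a limma fit across all genes. Median signals of the arrays ran from 54.8 to 61.9, the filter on dim genes lay at a signal of 47, and precision is limited by 3 arrays per group.

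Fcer1a, the IgE-binding alpha chain, had the largest difference of the family. Its signal was 1596, 4386 and 3721 in NCOR1-LYN replicates 1, 2 and 3, against 975, 388 and 341 in control replicates 1, 2 and 3. All 3 NCOR1-LYN arrays were above all 3 control arrays, and replicate 1 was the lowest of the NCOR1-LYN arrays and the highest of the controls. The signal averaged 3234 ± 1457 in NCOR1-LYN cells and 568 ± 354 in control cells (SD, n = 3 each), a log2 change of 2.40 ± 0.47 (SE), which ranked 5 in absolute size among the 10916 genes. Within pairs, the NCOR1-LYN signal was 1.64, 11.3 and 10.9 times that of the control in pairs 1, 2 and 3. The corresponding log2 changes were 0.68, 3.30 and 3.22, so the direction was shared and the size was not. The gene has 1 probe set annotated to it alone (1421775_at) and lies on chromosome 1 at 173221269 to 173227232 (GRCm38.p6).

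**Figure D1:**
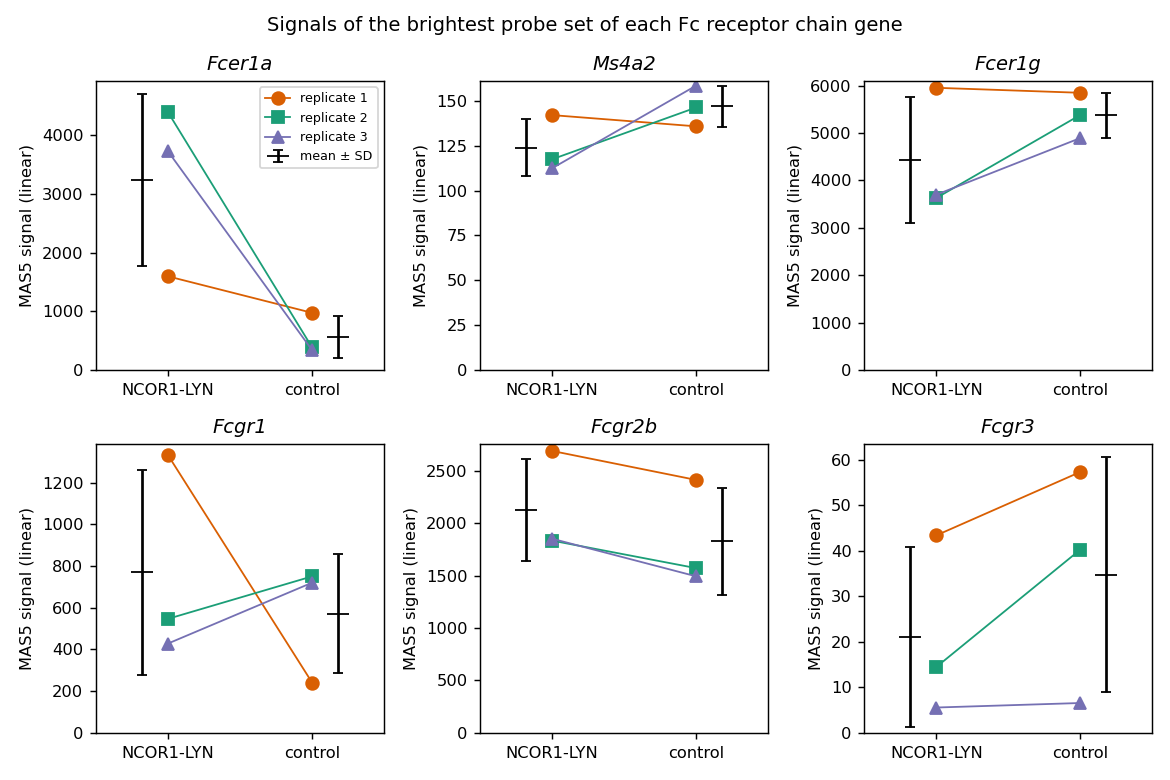
MAS5 signal (linear vertical axes, each starting at 0) of the brightest probe set of each of the 6 genes in NCOR1-LYN and control arrays. Lines join arrays of the same replicate number and black marks give the mean ± SD (n = 3), and in Fcer1a all lines slope the same way while in Fcgr1 the line of replicate 1 crosses those of replicates 2 and 3.

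Ms4a2, the beta chain, was dim. Its brighter probe set (1443264_at) had signals of 142, 117 and 112 in NCOR1-LYN replicates 1, 2 and 3, against 136, 146 and 158 in the controls, and the groups overlapped. The log2 change was −0.17 ± 0.14 (SE). The dimmer probe set (1421475_at) read 71, 72.2 and 67.9 in NCOR1-LYN cells and 23.6, 69.3 and 71.9 in control cells, which set control 1 below the other 5 arrays. Its log2 change was 0.20 ± 0.20 (SE from a fit of all probe sets, as for the other dimmer probe sets), opposite in sign to that of the brighter probe set. Neither probe set showed a difference of the size seen for Fcer1a, and the largest change of Ms4a2 in any pair was 0.62 on the log2 scale, in pair 1 of the dimmer probe set. The gene lies on chromosome 19, at 11615517 to 11623790.

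Fcer1g, the gamma chain that the IgE receptor shares with activating IgG receptors, was strongly expressed in both groups. Signals were 5954, 3630 and 3699 in NCOR1-LYN replicates 1, 2 and 3, against 5848, 5382 and 4895 in control replicates 1, 2 and 3. NCOR1-LYN 2 and 3 lay below all controls and NCOR1-LYN 1 above them, so the groups overlapped. The mean was 4428 ± 1322 in NCOR1-LYN cells and 5375 ± 477 in control cells (SD, n = 3 each), with a log2 change of −0.31 ± 0.20 (SE), or ± 0.13 with the replicate number as a block. Pairs 1, 2 and 3 differed by 0.03, −0.56 and −0.40 on the log2 scale. In pairs 2 and 3 the gamma chain thus had 0.674 and 0.756 times the control signal, where the alpha chain had more than 10 times. Fcer1g lies on chromosome 1 at 171229572 to 171234349.

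Fcgr1 encodes the high-affinity IgG receptor FcγRI, and its change depended on the pair. The brighter probe set (1417876_at) had signals of 1332, 547 and 428 in NCOR1-LYN replicates 1, 2 and 3, against 241, 750 and 720 in control replicates 1, 2 and 3. The highest array was NCOR1-LYN 1 and the lowest was control 1, while in replicates 2 and 3 the NCOR1-LYN arrays lay below the controls. The ratio of signals was 5.52 in pair 1, 0.729 in pair 2 and 0.595 in pair 3, and the log2 change over all arrays was 0.37 ± 0.49 (SE), smaller than its error. Without NCOR1-LYN 1 it was −0.08, without control 1 −0.09 and without both −0.54, so replicate 1 decides the sign for this probe set. The dimmer probe set (1436625_at) read 348, 173 and 130.4 in NCOR1-LYN cells against 77.4, 109 and 130.2 in control cells, with pair changes of 1.54, 0.45 and 0.00 and a log2 change of 0.67 ± 0.29 (SE). Its groups did not overlap, although NCOR1-LYN 3 and control 3 nearly coincided, and both probe sets had their largest change in pair 1. The gene lies on chromosome 3 at 96282909 to 96293969.

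**Figure D2:**
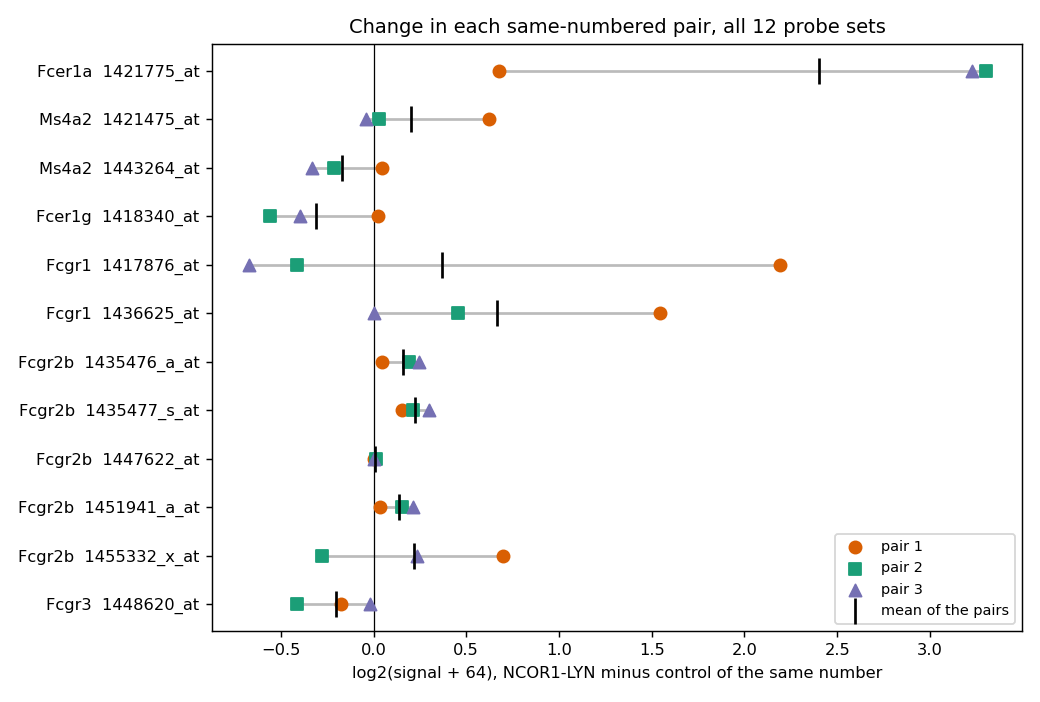
Log2 change (NCOR1-LYN minus control of the same number, log2(signal + 64), horizontal axis) in pairs 1, 2 and 3 for each of the 12 probe sets, with black bars for the mean of the pairs. Fcer1a reaches 3.30 and 3.22 in pairs 2 and 3 and 0.68 in pair 1, the brighter Fcgr1 probe set has 2.19 in pair 1 and negative values in pairs 2 and 3, and 3 of the Fcgr2b probe sets hold all pairs between 0.04 and 0.30.

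Fcgr3 encodes the alpha chain of FcγRIII, the low-affinity activating IgG receptor. The only probe set annotated to it alone (1448620_at) was near background. Signals were 43.4, 14.5 and 5.58 in NCOR1-LYN replicates 1, 2 and 3, against 57.4, 40.3 and 6.57 in the controls. It was the 1 member gene below the filter, so it did not enter the fit, and a change cannot be read at this signal. The gene lies on chromosome 1 at 171051169 to 171065915.

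Fcgr2b, the inhibitory IgG receptor, had 5 probe sets and differed more between replicates than between groups. The brightest (1435477_s_at) had signals of 2689, 1834 and 1852 in NCOR1-LYN replicates 1, 2 and 3, against 2412, 1571 and 1493 in control replicates 1, 2 and 3. Replicate 1 was the highest in both groups, and each NCOR1-LYN array lay above the control of its number by 0.15, 0.21 and 0.30 on the log2 scale. The log2 change was 0.22 ± 0.23 (SE) without and ± 0.09 with the replicate block, whereas replicate 1 stood above replicates 2 and 3 by 0.53 in NCOR1-LYN cells and 0.63 in control cells. Probe sets 1435476_a_at and 1451941_a_at had log2 changes of 0.16 ± 0.27 and 0.13 ± 0.32 (SE), positive in every pair. The cross-hybridising class (1455332_x_at) gave 0.70, −0.28 and 0.23 in pairs 1, 2 and 3 and did not share that evenness. The last probe set (1447622_at) was blank, with signals of at most 1.18 on any array, so its groups carry no information. The ligand-binding parts of Fcgr2b and Fcgr3 are alike in sequence, and whether the Fcgr2b probe sets read Fcgr3 RNA was not tested, although the Fcgr3 probe set itself was near background. Fcgr2b lies on chromosome 1 at 170960558 to 170976071, and the class letters s, a and x in a probe set's name are Affymetrix's marks for probes that can match several transcripts.

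Across the family, 10 of 12 probe sets passed the filter and 5 of 6 genes were in the fit. With Benjamini-Hochberg adjustment over 10916 genes in limma, 0 of these 5 genes passed an adjusted p of 0.05 without a block, where 0.0824% of all genes did, and 0 with the replicate block, where 0.824% did. At an unadjusted p of 0.05 in limma the count was 1 of 5 without a block (4.75% of all genes) and 3 of 5 with it (11.3%). Without both replicate 1 arrays, 3 of the 5 passed, Fcer1a (higher), Fcer1g (lower) and Fcgr1 (lower), where 6.93% of all genes did, in a fit with only 2 arrays per group. For Fcgr1 this was the brighter probe set, and the dimmer probe set had changes of 0.45 and 0.00 in pairs 2 and 3. The groups did not overlap for 1 of the 5 genes, Fcer1a, and for 11.2% of all genes in the fit. Since the members were chosen with this contrast known, nothing is read from these counts.

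The family held both directions of disagreement between the pairs. Pair 1 differed from the mean of pairs 2 and 3 by −2.59 on the log2 scale in Fcer1a and by 2.74 in Fcgr1, and in absolute size these ranked 6 and 4 of the 10916 genes. A difference of at least 1 was found in 329 genes, 3.01% of those in the fit. For Fcer1g the difference was 0.50 and for Ms4a2 0.32, and for Fcgr2b it was −0.10. Replicate 1 minus the mean of replicates 2 and 3 was −1.31 in NCOR1-LYN cells and 1.28 in control cells for Fcer1a, and 1.35 in NCOR1-LYN cells and −1.39 in control cells for Fcgr1. Both genes thus moved in opposite ways in the replicate 1 arrays of the groups, and Fcgr2b moved the same way in both. What set replicate 1 apart was not tested.

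**Figure D3:**
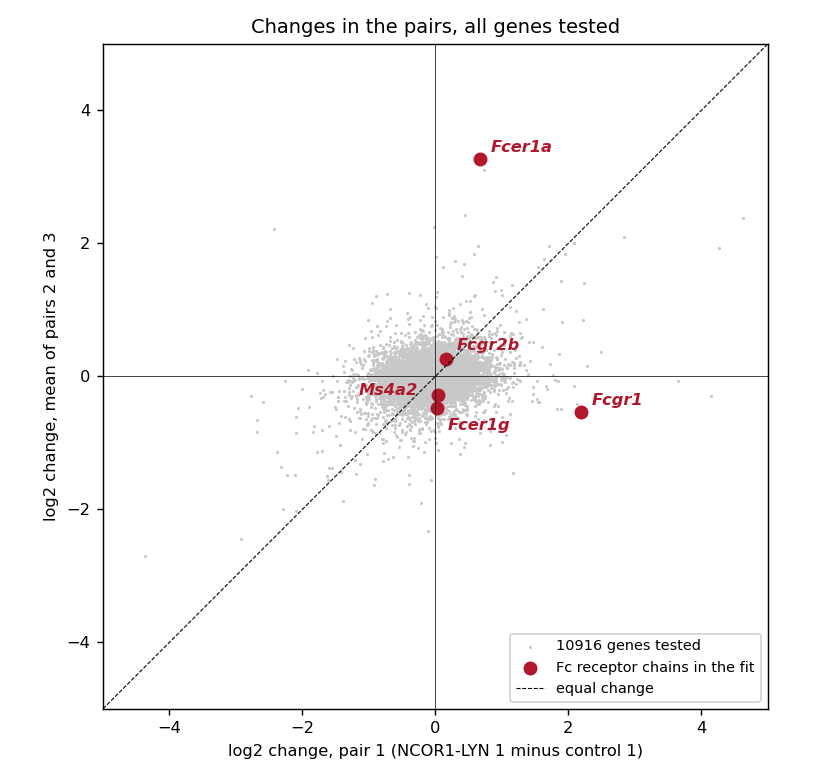
Log2 change in pair 1 (horizontal axis) against the mean log2 change of pairs 2 and 3 (vertical axis) for the 10916 genes in the fit (grey), with the 5 Fc receptor chains in red and the line of equal change dashed. Fcer1a lies far above that line at 0.68 and 3.26, Fcgr1 far below it at 2.19 and −0.54, and Fcgr2b, Ms4a2 and Fcer1g lie within the main cloud.

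Genes whose log2 signals ran most like those of each member are given with Pearson's r over the 6 arrays, as a description of arrays that share the replicate 1 offset. For Fcer1a these were Tfr2, the transferrin receptor 2 gene (r = 0.996), Atrnl1 (0.994) and Smad1, a transducer of BMP signals (0.993). Tfr2 had signals of 1306, 1949 and 1910 in NCOR1-LYN replicates 1, 2 and 3, against 951, 584 and 523 in the controls, so it shared the order of arrays with a smaller span. Fcgr1 ran with Nop14, a ribosome biogenesis factor (0.993), Ddit3, the stress-induced transcription factor CHOP (0.991), and Ms4a3, a membrane protein gene of myeloid progenitors (0.985). Ddit3 read 3682, 2003 and 1595 in NCOR1-LYN cells against 945, 2667 and 2417 in control cells, with NCOR1-LYN 1 highest and control 1 lowest as in Fcgr1. Fcer1g ran with Epc2 (0.998), Spata13 (0.986) and Lst1 (0.985), Fcgr2b with Drap1 (0.996), Frat2 (0.995) and D430042O09Rik (0.995), and Ms4a2 with Cdk2 (0.987), Gtf2e2 (0.983) and Cers2 (0.980). None of the members was among the 3 genes most like another, and r between members is likewise a description of 6 arrays that share a group difference and the replicate 1 offset. Among the chains of the IgE receptor, r was −0.93 for Fcer1a with Ms4a2, −0.67 for Fcer1a with Fcer1g and 0.75 for Fcer1g with Ms4a2. Ms4a2 was dim and stood here by its brighter probe set alone, whose log2 change was opposite in sign to that of the dimmer one. The other 7 pairs lay between −0.18 (Fcer1a with Fcgr1) and 0.44 (Fcer1g with Fcgr2b).

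Among other immunoglobulin receptors, few were measurable. Of 10 genes on the array, 6 lay below the filter, among them the low-affinity IgE receptor gene Fcer2a of B cells with a mean signal of 30.6 in NCOR1-LYN cells and 29.6 in control cells. Of the 4 tested, 0 passed in limma with or without the block, and 0 had an unadjusted p below 0.05 in either fit. Fcgr4, an activating IgG receptor of macrophages and neutrophils that also needs the gamma chain, read 49, 66.3 and 98.1 in NCOR1-LYN replicates 1, 2 and 3 and 4.31, 69.2 and 43.7 in the controls, with a log2 change of 0.43 ± 0.27 (SE).

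A list of receptors and adaptors drawn up around the gamma chain and the related adaptor DAP12 had 13 tested genes. Not all of them signal through these chains, since Hcst encodes another adaptor, DAP10, and Clec7a a receptor with its own motif. Of the 13, 0 passed in limma, with or without the block. At an unadjusted p of 0.05 in limma there were 2 without the block (4.75% of all genes) and 4 with it (11.3%). The 2 without the block were Hcst (log2 change −0.62 ± 0.22) and Clec7a (0.41 ± 0.15, SE). The median log2 change of the list was −0.18, against −0.01 over all genes in the fit. The largest change was in Clec4d, a C-type lectin receptor gene of myeloid cells, with signals of 3883, 1192 and 944 in NCOR1-LYN replicates 1, 2 and 3 against 4364, 2516 and 2314 in the controls. Its pair changes of −0.17, −1.04 and −1.24 were small in pair 1, as for Fcer1g, and its log2 change was −0.81 ± 0.51 (SE).

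The inhibitory receptors with an ITIM motif, the class to which Fcgr2b belongs, gave 0 of 12 past the threshold in limma without the block. At an unadjusted p of 0.05 there were 3 of 12 without the block (4.75% of all genes) and 4 of 12 with it (11.3%). With the block, 1 of 12 fell (0.559% of all genes did), Ceacam1, which encodes a cell adhesion receptor. Its signals were 757, 362 and 253 in NCOR1-LYN replicates 1, 2 and 3, against 1605, 773 and 755 in the controls, so it was lower in every pair although the groups overlapped by 1 array. The log2 change was −1.12 ± 0.12 (SE with the block, limma adjusted p = 0.0192, and 0.91 without the block). Its probes can match its near-identical paralogue Ceacam2. The median of the list was −0.11. Cd200r1, an inhibitory receptor of myeloid cells that was on the list but has no classical ITIM, was chosen after its values were seen. It read 1983, 1499 and 1145 in NCOR1-LYN cells against 1446, 204 and 181 in control cells, with pair changes of 0.44, 2.54 and 2.30 that resemble those of Fcer1a.

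The proximal signalling genes of Fc receptors were broadly expressed, with all 41 of the 41 on the array above the filter. In limma 0 passed without the block. At an unadjusted p of 0.05 there were 7 of 41 without the block (4.75% of all genes) and 12 of 41 with it (11.3%). All 7 without the block were lower. They were Lat, Lat2 (log2 change −0.79), Stx11 (−0.73), Dok2 (−0.72), Lcp2 (−0.67), Btk (−0.33) and Rabgef1 (−0.32). Of the 12 with the block, only Gab2 (0.32) was higher. Of the 41, 19 had a positive and 22 a negative log2 change, and the median was −0.02, against −0.01 over all genes. With the block, 1 of 41 fell (0.559% of all genes did), Lat, which encodes the adaptor that SYK phosphorylates downstream of FcεRI. Its signals were 182, 271 and 307 in NCOR1-LYN replicates 1, 2 and 3, against 360, 596 and 638 in the controls. The groups did not overlap, as for 11.2% of all genes, and the pair changes were −0.79, −0.98 and −0.92. The log2 change was −0.89 ± 0.12 (SE with the block, limma adjusted p = 0.029, and 0.61 without the block). Syk itself had a log2 change of 0.14 ± 0.26 and Inpp5d, the gene of SHIP1, of −0.31 ± 0.30 (SE), both chosen after their values were seen.

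**Figure D4:**
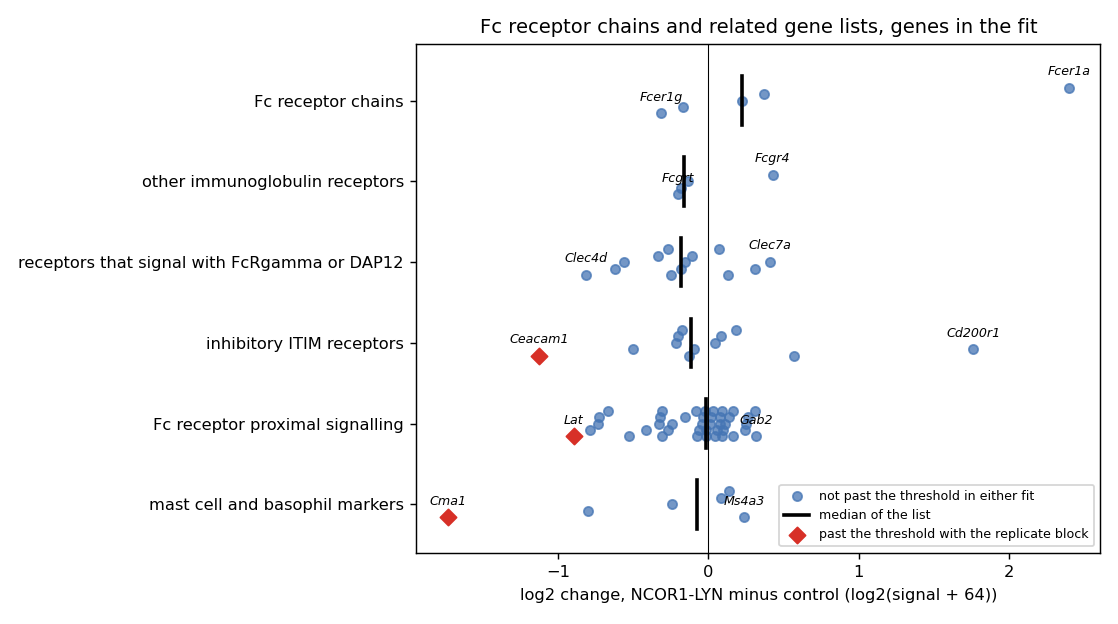
Log2 change (NCOR1-LYN minus control, horizontal axis) of every gene in the fit for the Fc receptor chains and 5 related lists, 1 point per gene, with vertical bars at the list medians and red diamonds for genes past the threshold with the replicate block. Fcer1a lies at 2.40, right of every other gene shown, and Ceacam1, Lat and Cma1 are the 3 diamonds, all below 0.

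Markers of the cells that use these receptors were checked beside the members. Of 21 mast cell and basophil markers on the array, 15 lay below the filter, among them Kit, Cpa3 and Mcpt8 with mean signals of 11.8, 28.6 and 6.83 in NCOR1-LYN cells and 22.1, 32.4 and 41.3 in control cells. In limma 0 of the 6 tested passed without the block (0.0824% of all genes) and 1 with it (0.824%). At an unadjusted p of 0.05 there were 2 without the block (4.75% of all genes) and 2 with it (11.3%). Gata2, which encodes a transcription factor of mast cells and progenitors, and Slc18a2, a vesicular monoamine transporter gene, were the brightest. Gata2 read 6373, 4339 and 5671 in NCOR1-LYN replicates 1, 2 and 3 against 14085, 7775 and 7669 in the controls, lower in every NCOR1-LYN array, with a log2 change of −0.80 ± 0.26 (SE), and did not pass in either limma fit (adjusted p = 0.772 without and 0.0668 with the block). Slc18a2 had a log2 change of 0.14 ± 0.19. Cma1, a mast cell chymase gene, fell with the block, with signals of 80.5, 5.74 and 52.4 in NCOR1-LYN replicates 1, 2 and 3 against 615, 190 and 186 in the controls (log2 change −1.73 ± 0.23, SE with the block, limma adjusted p = 0.0281, and 0.534 without the block). In NCOR1-LYN 2 and 3 the Cma1 signal lay below the array medians of 54.8 to 61.9, so the size of its change is limited by background and the offset. Of the 6 tested, 3 had a positive and 3 a negative log2 change. The summed signal of the list ran from 20263 to 26014 in NCOR1-LYN arrays and from 21838 to 32795 in control arrays, a sum to which the bright genes Slc18a2, Gata2 and Ms4a3 contributed most. The part of mast cell genes in the difference of Fcer1a was not tested.

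Of 17 macrophage and monocyte markers on the array, 11 lay below the filter, among them Cd14, Mrc1 and C1qa, and 0 of 6 passed in either limma fit. At an unadjusted p of 0.05 there was 1 of 6 without the block (4.75% of all genes) and 3 of 6 with it (11.3%). Their summed signal was 1692 to 2725 in NCOR1-LYN arrays and 2719 to 2895 in control arrays. On average Ccr2 (means of 547 in NCOR1-LYN and 1082 in control cells) and Adgre1 (774 and 847) contributed most to this sum. Ccr2, a chemokine receptor gene of monocytes, was lowest in NCOR1-LYN 1 (164, against 1307 in control 1), the array in which Fcgr1 was highest. Adgre1, which encodes the macrophage antigen F4/80, had a log2 change of −0.19 ± 0.37 (SE). Of 11 tested neutrophil and eosinophil markers, 1 was higher in limma without the block (0.0824% of all genes passed), Ltf (log2 change 2.35), and 10 did not pass. With the block (0.824% of all genes passed), 2 were higher, Ltf and Epx (1.59), 1 was lower, Cxcr2 (−2.05), and 8 did not pass. Signals were near background for Cxcr2 in NCOR1-LYN 2 and 3 (13.4 and 14). The same holds for Ltf in the controls (36.9, 60.4 and 85.1) and for Epx in control 1 (36.1). At an unadjusted p of 0.05 there were 5 of 11 without the block (4.75% of all genes) and 8 of 11 with it (11.3%). Ngp, a neutrophil granule protein gene, read 4118, 4686 and 4513 in NCOR1-LYN replicates 1, 2 and 3 against 153, 1216 and 1097 in the controls, and its limma adjusted p was 0.417 without and 0.0502 with the block. Prg2, which encodes the major basic protein of eosinophils, had a log2 change of 1.07 ± 0.49 (SE) and did not pass in either fit. The summed signal of this list ran from 12895 to 15813 in NCOR1-LYN arrays and from 3867 to 6457 in control arrays. On average Ngp, Prtn3 and Prg2 contributed most to it. Of 18 markers on the array, 7 lay below the filter, among them S100a8 (mean 18.3 in NCOR1-LYN and 89 in control cells). Of the 11 tested, 9 had a positive and 2 a negative log2 change, Cxcr2 and S100a9 (−0.23 ± 0.42, SE). Lcn2 was high in NCOR1-LYN 1 only (1457, against 56.3 and 39 in NCOR1-LYN 2 and 3). The part of these granulocyte genes in the differences of Fcer1a and Fcgr1 was not tested, and in bulk RNA fewer cells and less RNA per cell cannot be told apart. Of 21 B lineage markers on the array, 14 lay below the filter, among them Cd79a, Ebf1, Rag1 and Rag2, so few markers of the B lineage were detected in this line, with Cd79b (mean 436 in NCOR1-LYN cells and 471 in control cells) and Cd72 (346 and 527) the brightest. Of the 7 B lineage genes tested, 0 passed in either limma fit. At an unadjusted p of 0.05 there was 1 of 7 without the block (4.75% of all genes) and 1 of 7 with it (11.3%). T and NK cell, erythroid and megakaryocyte, and fibroblast markers gave 0 calls in either limma fit among 4, 4 and 1 tested genes. At an unadjusted p of 0.05 there were 1, 1 and 0 of them without the block (4.75% of all genes) and 1, 2 and 1 with it (11.3%). Log2 changes were 0.81 ± 0.31 for Nkg7 and −0.41 ± 0.66 for Zap70 of the T and NK cell list, and −0.19 ± 0.39 for Klf1, −0.47 ± 0.36 for Itga2b and −0.71 ± 0.21 for Gp9 of the erythroid and megakaryocyte list (SE). Of the fibroblast list, Col1a2 had −0.49 ± 0.25 (SE), and Fn1 lay below the filter.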

How the data were processed

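RNA of 6 Ba/F3 cultures was measured on 1 Affymetrix array each, 3 with NCOR1-LYN induced and 3 controls, grouped and numbered by the sample titles. The deposited file holds 1 linear intensity per probe set, made by the authors with MAS5 as the submitters' processing notes say. Its version is not given in the sources used here. Tested on the values, each array has a mean of 500 after trimming 2% of probe sets at each end. Scanner files and detection calls were not used here, so no other background correction was tried.

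Signals were used as log2(signal + 64). Of 45101 probe sets, 34958 had exactly 1 symbol in the platform annotation (0 changed through Entrez identifiers). The probe set with the highest mean stood for a gene, and genes under the 40th percentile of mean log2 values were left out, which left 10916. limma 3.58.1 in R 4.3.3 was fitted over all 6 arrays (lmFit, eBayes with an intensity trend) with Benjamini-Hochberg adjustment and a two-sided threshold of 0.05. SEs of member genes come from this fit. A fit of all probe sets that are not controls was also made. The script was tested on simulated data.

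The members and lists were chosen with earlier results of these data known. Named genes were every member probe set, up to 4 genes per list past the threshold with or without the block or else the largest change, the 2 brightest genes of marker lists, and the 3 genes most correlated with each member. Genes below the filter that are given as examples of markers or receptors (such as Kit, Fcer2a, Cd14 and Cd79a) were picked outside this rule, after their values were seen. The same holds for Hcst, Clec7a, Prtn3, Lcn2 and S100a9, and for Lat2, Stx11, Dok2, Lcp2, Btk, Rabgef1 and Gab2. Arrays of the same number correlated in their deviations from the group means at 0.62, 0.41 and 0.44 for replicates 1, 2 and 3. Crossing replicates 2 and 3 gave similar values (0.39 and 0.49). The correlations thus show that replicate 1 stood apart in both groups, and cannot tell how replicates 2 and 3 pair. The pairs and the replicate block rest on the numbers in the sample titles, and no shared batch is named in the labels. Coordinates and promoters are those of RefSeq on GRCm38.p6, with all 6 genes matched by symbol.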

Additional observations from a re-analysis of the deposited data

How the results depend on the processing

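The log2 changes of the 6 genes moved by less than the spread between replicates with a lower or higher offset and with quantile normalisation. Leaving out the filter or adding the replicate block cannot change the log2 change of a gene, so these settings do not test it. Leaving out 1 array gave 2.12 to 2.84 for Fcer1a, −0.54 to −0.19 for Fcer1g, −0.09 to 0.67 for Fcgr1, 0.05 to 0.43 for Fcgr2b, −0.43 to −0.04 for Fcgr3 and −0.24 to −0.12 for Ms4a2. Without both replicate 1 arrays the values were 3.26 for Fcer1a and, in the brighter probe sets, −0.54 for Fcgr1 and −0.27 for Ms4a2. The dimmer Fcgr1 probe set had 0.23 in those arrays. Over all arrays the mean of the 2 Ms4a2 probe sets gave 0.018. The number of genes past the threshold was 9, and 90 with the replicate block, 1 without the filter, 757 without both replicate 1 arrays and 0 to 15 without 1 array (0 without NCOR1-LYN 2, NCOR1-LYN 3, control 2 or control 3, and 15 without control 1). Of the Fc receptor chains, 3 passed without both replicate 1 arrays, where 6.93% of all genes did, and 0 without any 1 array. In that fit without replicate 1, 9 proximal signalling genes, 3 genes of the gamma chain and DAP12 list and 2 ITIM receptors passed. With all arrays these lists had 41, 13 and 12 tested genes. Of the marker lists, 8 neutrophil and eosinophil, 4 mast cell and basophil, 1 macrophage and monocyte and 0 B lineage markers passed without both replicate 1 arrays. With all arrays these marker lists had 11, 6, 6 and 7 tested genes. With the replicate block 1 proximal signalling gene and 1 ITIM receptor passed, where 0.824% of all genes did. Leaving out 1 array gave 0 to 1 ITIM receptors (1 without control 1) and 0 in the other lists of receptors and signalling genes. The neutrophil and eosinophil list, with 1 call as reported, had 0 without the filter. It also had 0 without NCOR1-LYN 2, NCOR1-LYN 3, control 2 or control 3, and 2 without control 1. The cause of these changes was not tested. Fits without both replicate 1 arrays hold 2 arrays per group. Signals near background limit Fcgr3 and Ms4a2.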
